A study of Mus musculus with 4 samples.

Results

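Natural killer (NK) cells sorted from the spleens of uninjected mice were compared between 1 library labelled Irf4-/- and 1 wild-type (WT) library. The genes described are all those whose mean over these 2 control libraries was at least 5 CPM (counts scaled to library size). Of 35275 genes in the table, 9659 met this minimum, and 9309 of them are protein-coding. They held 99.3% of the counts of each control library, while 10392 other genes had a count in either library and 15224 had none in both.

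The study is a mouse RNA sequencing series of 4 libraries, in which 2 genotype labels are crossed with tumour cell injection. The WT mice are C57BL/6 and the other mice carry the label Irf4-/-. The control mice of both genotypes were not injected, and the injected mice were harvested 20 days after intravenous B16-F10 cells, which come from a melanoma of a C57BL/6 mouse. All 4 libraries come from splenic cells enriched for NK cells with a kit and then sorted as negative for CD3 and positive for NK1.1. The sources used here do not give the age of the mice, the number of animals behind a library, the part of Irf4 that was deleted, or any promoter or Cre driver.

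NK cells are innate lymphocytes that kill virus-infected and tumour cells by releasing granules of perforin and granzymes, and their readiness is set by a balance of activating and inhibitory receptors. Interferon regulatory factor 4 (IRF4) is a transcription factor of lymphocytes and myeloid cells. It is induced by antigen receptor and cytokine signals, binds DNA together with ETS or AP-1 factors, and is best known for its roles in plasma cells and in the expansion of activated T cells. As NK cells mature in the mouse they lose early markers such as CD27 and gain CD11b (Itgam), KLRG1 and CX3CR1.

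Total counts were 15878159 in Irf4-/- control and 21104881 in WT control, and 18639455 and 18640811 in the injected libraries. With 1 library in each group a difference compares those libraries, not the genotypes, and no p-value across animals can be given. The 95% intervals given in parentheses after log2 ratios are exact (Clopper-Pearson) intervals of the ratio of counts. They cover counting error only, and because no molecular identifiers are recorded for these counts, PCR copies may count as separate reads. A count of 0 allows up to 3 counts, which is 0.187 CPM in Irf4-/- control and 0.143 CPM in WT control. Mitochondrially encoded genes took 0.962% and 0.905% of the counts of these libraries, and ribosomal protein genes 4.62% and 5.17%.

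In what follows, a pair of levels, in CPM, gives the library labelled Irf4-/- first and WT second, and a positive log2 ratio means more in the library labelled Irf4-/-. The 2 injected libraries share no library with the control pair, so their values stand beside it as a separate pair of the same genotype labels.

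Irf4 itself (ENSMUSG00000021356, chr13:30749226-30766976 in GRCm38, plus strand) had 188 and 93 counts in the control pair and 236 and 57 in the injected pair. That is 11.7 against 4.42 CPM and 12.7 against 3.07 CPM, with log2 ratios of 1.39 (1.04 to 1.78) and 2.01 (1.62 to 2.49). Irf4 was thus higher, not lower, in both libraries labelled Irf4-/-. Because the deleted part of the gene is not stated, counts summed over the whole gene check nothing about the label. Within 5 Mb of Irf4 on chromosome 13, 20 genes met the minimum, and Irf4 was the only one that differed by 2-fold.

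The cells carried the transcripts that define NK cells in both control libraries. All 12 NK markers met the minimum, with summed levels of 15041 CPM in the library labelled Irf4-/- and 13972 CPM in WT, and the spread of their log2 ratios was from -0.25 to 0.32. Ncr1, the activating receptor NKp46, stood at 1271 against 1204, and Klrb1c, which encodes the sorted antigen NK1.1, at 1078 against 1189. The transcripts of the CD3 chains were low, with Cd3e at 5.18 against 9.37, Cd3g at 16.6 against 18.3 and Cd3d at 18.1 against 18.4. Here and below, more cells of a type or stage and more RNA per cell cannot be told apart in such bulk libraries.

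Most genes were close to level between the control libraries. The median log2 ratio over the 9659 genes was -0.02, and 8259 genes (85.5%) differed by less than 1.2-fold. A difference of at least 1.5-fold was found for 244 genes (2.53%). At least 2-fold higher in the library labelled Irf4-/-, with a counting interval above 0, were 67 genes, 0.694% of those measured. At least 2-fold lower, with an interval below 0, were 10 genes, or 0.104%. By the interval alone, without a minimum fold, 1459 genes (15.1%) were higher and 2161 (22.4%) lower, with median sizes of 0.23 and 0.19 on the log2 scale. That split depends on the scaling: with upper-quartile scaling in place of trimmed means 1808 genes were higher and 1715 lower. The balance of directions among the small differences therefore moves with the scaling.

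**Figure D1:**
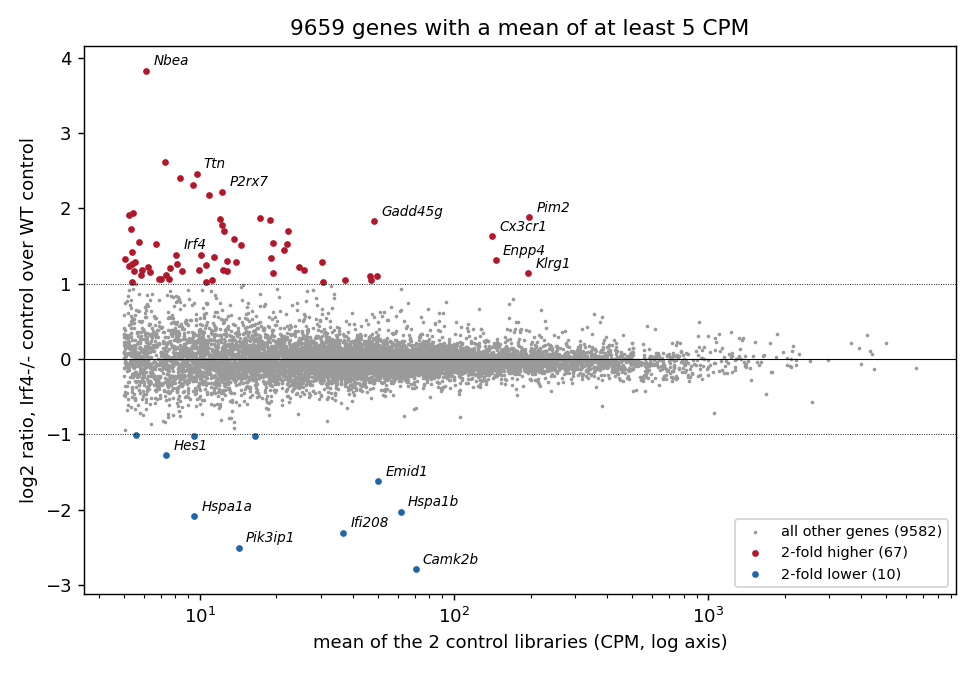
Each point is 1 of 9659 genes, placed by its mean CPM over the control libraries (log axis) and by the log2 ratio of Irf4-/- control over WT control; red marks the 67 genes at least 2-fold higher, blue the 10 at least 2-fold lower, and dotted lines mark 2-fold. The band of grey points narrows as the level rises, and only Pim2, Cx3cr1, Enpp4 and Klrg1 are 2-fold higher at a mean of 100 CPM or more.

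The 2-fold higher genes were mostly weakly expressed: 51 of the 67 had a mean under 20 CPM and 4 had one of at least 100 CPM. Of genes between 5 and 10 CPM 2.87% were 2-fold higher, and of genes between 20 and 50 CPM 0.445%. By kind, 53 were protein-coding and 10 were annotated as pseudogenes.

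Among the abundant genes the largest ratio was that of Pim2, a serine/threonine kinase that supports survival downstream of cytokine receptors. It stood at 311 against 84.3 in the control pair and 561 against 155 in the injected pair, log2 ratios of 1.88 (1.81 to 1.96) and 1.85 (1.79 to 1.91). Cx3cr1, which encodes the receptor for fractalkine, stood at 213 against 68.6, and at 208 against 24.7 in the injected pair. The libraries labelled Irf4-/- were nearly level for Cx3cr1, and WT injected was the lowest of the 4. Klrg1, an inhibitory receptor that binds cadherins and marks late NK maturation, stood at 269.6 against 122 and 218 against 70.2 in the same order. Enpp4, an ectoenzyme of the nucleotide pyrophosphatase family, stood at 208 against 83.9 and 221 against 74.6. For each of these 4 genes both libraries labelled Irf4-/- lay above both WT libraries.

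Several receptors and signalling genes that were weak in WT were clearly counted in the library labelled Irf4-/-. Il2ra, which encodes CD25 and raises affinity for interleukin 2, had 286 and 81 counts, or 17.9 against 3.85. P2rx7, an ATP-gated ion channel, stood at 20.2 against 4.23, and Cxcr6, a receptor for the chemokine CXCL16 and a marker of tissue-resident lymphocytes, at 29.6 against 8.18. In the injected pair the same 3 genes stood at 29.8 against 8.67, 32.5 against 6.84 and 53.3 against 11.1 CPM. Gadd45g, a stress-induced gene that activates p38 MAP kinase signalling, stood at 75.7 against 21.2 with a ratio of 1.83 (1.68 to 2.0). Pde5a, a phosphodiesterase that breaks down cyclic GMP, stood at 27.2 against 7.33 with 1.88 (1.62 to 2.17). Of the inhibitory receptors, Cd200r1 stood at 7.62 against 3.33 and Lag3, which binds MHC class II, at 19.6 against 9.85, just under 2-fold with a log2 ratio of 0.99 (0.74 to 1.25). These had the highest ratios of 10 measured inhibitory and checkpoint genes, and Cish had the lowest, at -0.47. Of the 10 genes 4 were higher by interval and 3 lower, beside 15.1% and 22.4% of all genes, with a median of 0.04.

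Other 2-fold higher genes were weakly expressed in WT, and those named next were picked after their values were seen. Nbea, a scaffold of membrane traffic in neurons, had 185 and 15 counts and the largest ratio of all genes at the minimum, 3.83 (3.26 to 4.88). Ttn, the giant muscle protein titin, stood at 16.5 against 2.9 CPM, Sema6d, a semaphorin of axon guidance, at 14.1 against 2.57, and Asph, an aspartate hydroxylase, at 15.7 against 3.09. Dsp, the desmosome protein desmoplakin, stood at 20.4 against 6.71, with 1.59 (1.32 to 1.90). Dscam, a cell adhesion molecule of neurons, stood at 19.7 against 7.99, and Ckb, the brain form of creatine kinase, at 16.4 against 6.33. Each of these 7 genes was also higher in the library labelled Irf4-/- of the injected pair, at log2 ratios between 1.07 (Ckb) and 4.38 (Nbea).

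**Figure D2:**
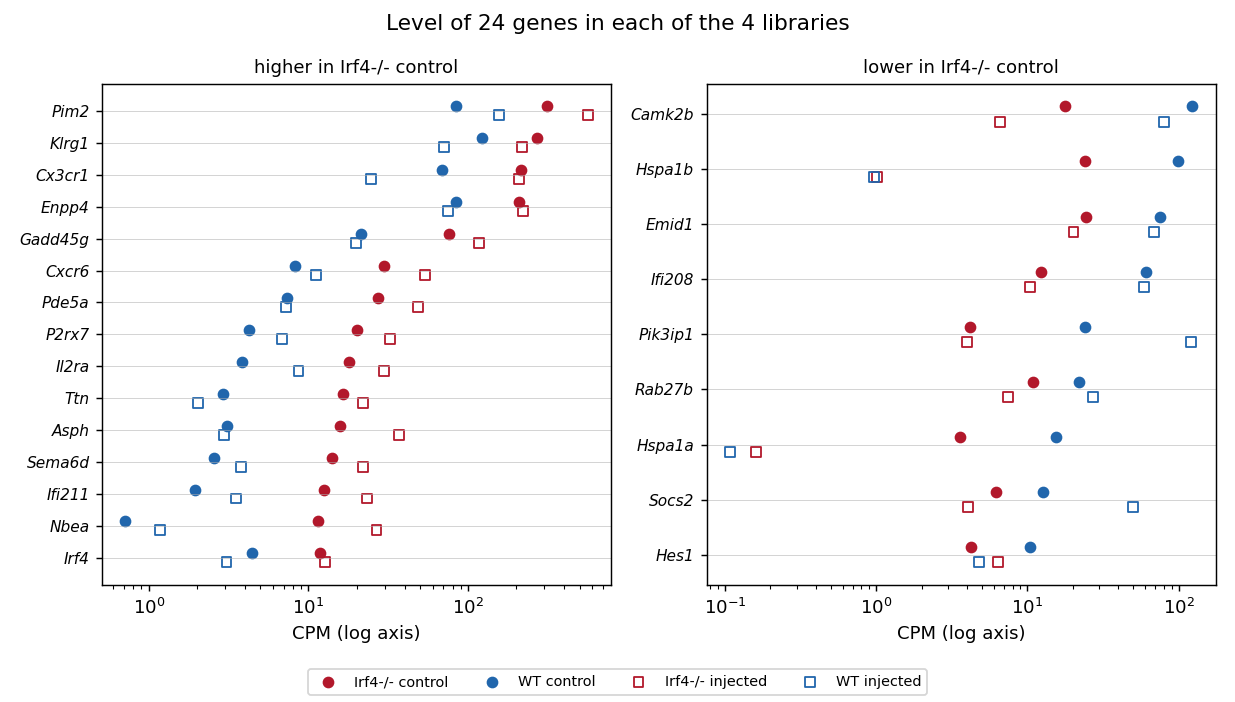
CPM (log axis) of 15 genes higher and 9 genes lower in Irf4-/- control, in each of the 4 libraries; red marks the libraries labelled Irf4-/-, blue WT, filled circles control and open squares injected, with 1 library per symbol and no error bars. In the left panel the red symbols lie right of the blue ones for every gene; in the right panel Hspa1a, Hspa1b and Hes1 are the genes whose open squares do not follow the filled circles.

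Some of the 2-fold higher genes are neighbours on the chromosome. Enpp5 (63.6 against 29.6 CPM) lies beside Enpp4 on chromosome 17, separated by 9741 bases. P3h4 (14.6 against 5.52) and Fkbp10 (10.7 against 4.57), both linked to the processing of collagen in the endoplasmic reticulum, lie 861 bases apart on chromosome 11 and on opposite strands. Slc35e4 (21.6 against 7.47) and Dusp18 (9.37 against 4.42) lie 5725 bases apart near the start of chromosome 11, also on opposite strands. Rtl5 (8.37 against 2.14) and Nhsl2 (34.4 against 14.7) overlap on the X chromosome on opposite strands. Whether the counting used strand is not given in the sources used here, so reads of such overlapping genes cannot be told apart.

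The 10 genes that were 2-fold lower include 3 from 1 stretch of chromosome 11. Camk2b, a subunit of calcium/calmodulin-dependent protein kinase II, stood at 17.7 against 123 CPM and 6.61 against 80.0 in the injected pair. Pik3ip1, a membrane protein that restrains phosphoinositide 3-kinase, stood at 4.18 against 24.2 and 3.97 against 120.2. Emid1, an extracellular matrix protein, stood at 24.6 against 75.8 and 20.2 against 69.1. Their positions in GRCm38 are chr11:5106265-5152257 for Emid1, chr11:3330401-3342971 for Pik3ip1 and chr11:5969644-6066362 for Camk2b. The first 6.2 Mb of that chromosome held 45 measured genes, of which these 3 were 2-fold lower and 2, Slc35e4 and Dusp18, 2-fold higher, while the median log2 ratio of the stretch was -0.01. This region was singled out after its values had been seen. In the libraries labelled Irf4-/- Pik3ip1 was nearly level, and the larger ratio of the injected pair came with a higher WT injected value.

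The other lower genes had various roles. Ifi208, an interferon-inducible gene of the p200 family, stood at 12.2 against 61 CPM, while its family member Ifi211 was higher at 12.6 against 1.95. The single best local alignment of the longest transcripts of these 2 genes covered 305 bases, of which 213 matched (69.8%). Other stretches were not aligned, and whether the genes share reads was not tested. Rab27b, a small GTPase of secretory vesicles, stood at 10.9 against 22.1 with -1.02 (-1.29 to -0.77), and Socs2, a suppressor of cytokine signalling, at 6.24 against 12.8 with -1.02 (-1.38 to -0.69). Hes1, a transcriptional repressor induced by Notch, stood at 4.25 against 10.5 with -1.28 (-1.72 to -0.90) and was on the other side in the injected pair, at 0.41 (0.01 to 0.83). The remaining 3 were Hspa1a and Hspa1b, described with the heat shock genes, and C030034L19Rik, a long noncoding RNA at 3.68 against 7.52. Rab27b, Socs2 and C030034L19Rik lay at the line: with upper-quartile scaling each was at a log2 ratio between -0.99 (Rab27b) and -0.98 (C030034L19Rik), short of 2-fold. Socs2 and C030034L19Rik were short of it also with library totals and with a prior count of 5.

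Just under the 2-fold line on the lower side were genes of lymphoid signalling. Dtx1, a ubiquitin ligase of the Notch pathway, stood at 77.8 against 133 CPM with -0.77 (-0.87 to -0.68). Pik3r2, a regulatory subunit of phosphoinositide 3-kinase, stood at 22.8 against 40.4 with -0.82 (-1.0 to -0.65), and Bmf, a proapoptotic BCL2 family member, at 9.8 against 17.5 with -0.83 (-1.12 to -0.56). Ephb6, an ephrin receptor of lymphocytes, stood at 9.49 against 16.4 with -0.78 (-1.07 to -0.51).

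Among lists of 10 or more measured genes, mitosis had the largest share of members higher. All 26 listed genes of mitosis and the G2/M phase met the minimum, and 24 were higher by their counting intervals and 0 lower, beside 15.1% and 22.4% of all genes. Their median log2 ratio was 0.44, against -0.02 for all genes, and none reached 2-fold. Aurkb, a kinase of chromosome segregation, stood at 22.2 against 12.2 CPM with 0.86 (0.63 to 1.10). Ccnb1, the mitotic cyclin B1, stood at 10.6 against 6.18 with 0.76 (0.43 to 1.11), and Cenpe, a kinetochore motor, at 30.8 against 20.4 with 0.59 (0.41 to 0.79). Bub1, a kinase of the spindle checkpoint, was at 0.57 (0.29 to 0.86) and Tpx2, a spindle assembly factor, at 0.57 (0.38 to 0.76). The 2 whose intervals include 0 were Plk1, a mitotic kinase, at 0.03 (-0.23 to 0.29), and Nusap1, a spindle protein, at 0.08 (-0.13 to 0.29).

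The promoters of 4 of these cyclin, kinase and motor genes are shown because cell cycle genes of this phase share 2 short elements. These are the cell cycle genes homology region (CHR, searched as TTTGAA or TTTAAA on both strands) and the CCAAT box (CCAAT on both strands). Each line gives 125 bases before and 25 after the start site, 5' to 3' on the strand of the gene, from RefSeq on GRCm38.p6, with matches in capitals (TTCAAA is TTTGAA read on the other strand); no match printed overlaps another.
Ccnb1: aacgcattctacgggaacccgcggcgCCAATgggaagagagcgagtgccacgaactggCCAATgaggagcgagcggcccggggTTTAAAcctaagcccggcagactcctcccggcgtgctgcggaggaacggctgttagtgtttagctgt
Ccnb2: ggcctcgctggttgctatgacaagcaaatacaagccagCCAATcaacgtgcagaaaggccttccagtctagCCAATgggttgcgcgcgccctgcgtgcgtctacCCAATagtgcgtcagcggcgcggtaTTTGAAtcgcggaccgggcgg
Cenpe: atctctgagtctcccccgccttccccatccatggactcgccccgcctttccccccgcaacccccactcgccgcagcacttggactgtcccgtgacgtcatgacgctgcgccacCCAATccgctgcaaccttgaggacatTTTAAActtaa
Ttk: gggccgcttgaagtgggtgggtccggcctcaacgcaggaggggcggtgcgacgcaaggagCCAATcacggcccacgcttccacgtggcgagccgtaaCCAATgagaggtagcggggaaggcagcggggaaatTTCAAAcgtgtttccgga
They lie at chr13:100786462-100786611 (Ccnb1, minus strand), chr9:70421530-70421679 (Ccnb2, minus strand), chr3:135212438-135212587 (Cenpe, plus strand) and chr9:83834564-83834713 (Ttk, plus strand). Ccnb2 and Ttk, a kinase of the spindle checkpoint, had log2 ratios of 0.56 and 0.54. Of the 26 genes 22 matched a RefSeq promoter window of 300 bases, and 19 of these 22 (86.4%) held a CHR in any of their windows. Counted in the same way, 22.2% of the 7639 genes at the minimum with a window held one. Counted by window, the share was 27.6% of all 32851 windows. A CCAAT box was found in 19 (86.4%), against 43.2% of the genes at the minimum with a window and 37.4% of all windows. A match is a run of letters and not a measured binding site.

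DNA replication genes were closer to level than the mitosis genes. Of 28 measured genes of replication and S phase 6 were higher by interval and 4 lower, beside 15.1% and 22.4% of all genes, with a median of 0.03. E2f2, a transcription factor of the G1/S transition, was at 0.63 (0.51 to 0.76), and Rrm2, a ribonucleotide reductase subunit, at 0.49 (0.35 to 0.62), while Cdt1, a replication licensing factor, was at -0.31 (-0.44 to -0.18). The MCM helicase genes Mcm2 to Mcm7 lay between -0.09 (Mcm6) and -0.05 (Mcm2). In the injected pair 22 of the 28 genes were higher by interval and 2 lower, beside 28.2% and 26.6% of all genes in that pair. Their median there was 0.39. A CHR was found in 8 of the 24 replication genes with a promoter window (33.3%).

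Across the 4 libraries the summed mitosis list stood at 998 CPM in Irf4-/- control, 742 in WT control, 731 in Irf4-/- injected and 435 in WT injected. WT control and Irf4-/- injected were thus level, and within each treatment the library labelled Irf4-/- was higher. Beside these values, the summed B cell list stood at 474 against 440 CPM in the control pair, and the monocyte and macrophage list at 247 against 200. Their part in the mitosis values was not tested.

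**Figure D3:**
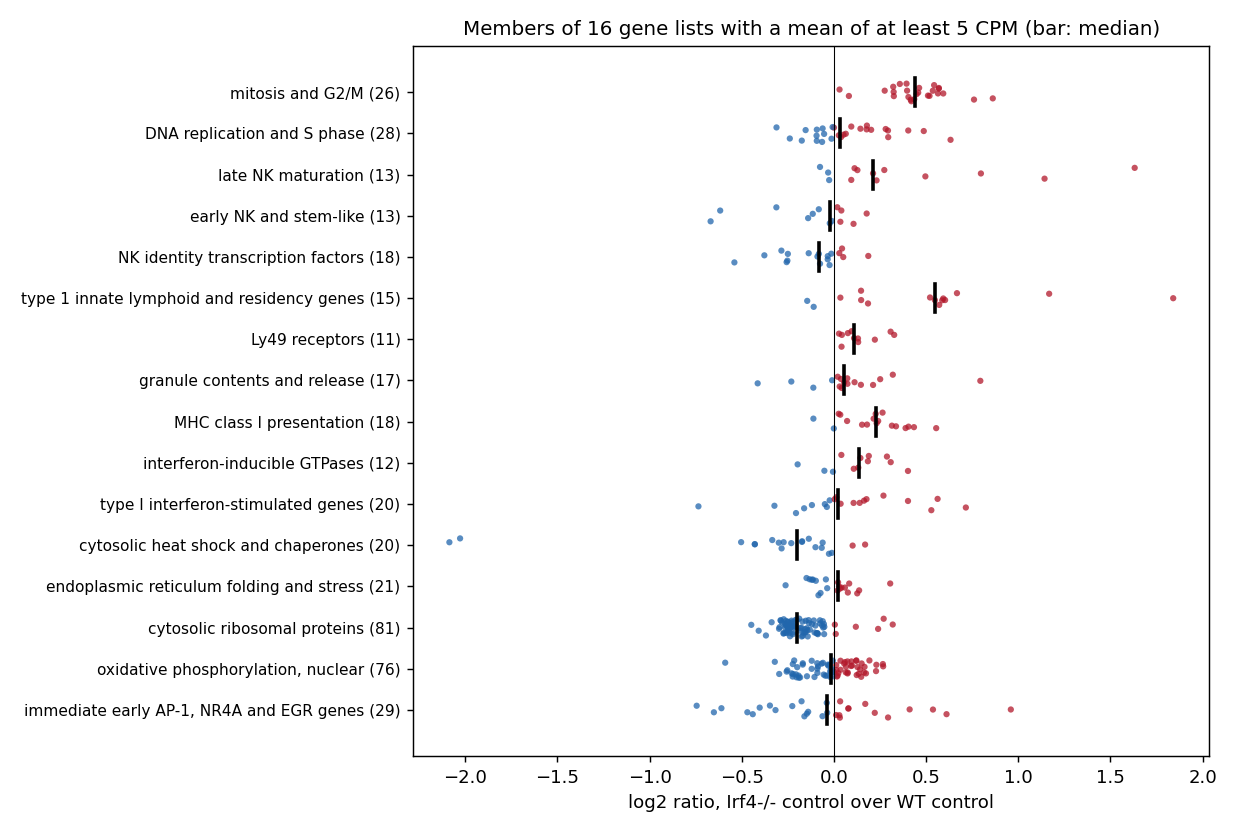
Each point is the log2 ratio of Irf4-/- control over WT control of 1 gene with a mean of at least 5 CPM, for 16 lists with the number of such members in brackets; red is above 0, blue below, and the black bar is the list's median. All 26 points of the mitosis list lie right of 0, the lowest at 0.03, with a median of 0.44. The cytosolic ribosomal protein and heat shock lists lie mostly left of 0, both with a median of -0.20.

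Of 13 measured genes of late maturation 10 were higher by interval and 1 lower, beside 15.1% and 22.4% of all genes, with a median of 0.21. Besides Cx3cr1 and Klrg1, Cma1, a mast cell protease that mature mouse NK cells also express, stood at 216 against 124 CPM, and Itgam, the integrin CD11b, at 1078 against 764. Both libraries labelled Irf4-/- exceeded both WT libraries for these 4 genes. Tbx21, the transcription factor T-bet that drives this stage, was at -0.08 (-0.12 to -0.03). S1pr5, a receptor for exit from bone marrow and lymph nodes, was at -0.03 (-0.07 to 0.01), and Zeb2, which acts with T-bet, at -0.03 (-0.09 to 0.04). In the injected pair 10 of the 13 genes were higher by interval and 3 lower, beside 28.2% and 26.6% of all genes in that pair. By interval 7 went the same way in both pairs and 4 opposite ways.

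Among early and stem-like genes, 2 of 13 were higher by interval and 6 lower, beside 15.1% and 22.4% of all genes, with a median of -0.02. Tcf7, the transcription factor TCF-1 of early lymphoid stages, stood at 302 against 463 CPM with -0.62 (-0.67 to -0.57). Slamf6, a receptor of the SLAM family, stood at 14.2 against 22.7 with -0.67 (-0.91 to -0.44), and Cd27, a receptor of immature NK cells, at 137 against 169.6 with -0.31 (-0.39 to -0.23). Il7r, a cytokine receptor chain, was at 0.04 (-0.08 to 0.15).

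The list of type 1 innate lymphoid and residency genes, which tissue-resident relatives of NK cells express, had the highest median of the lists of 10 or more measured genes, 0.55. Of 15 measured genes 10 were higher by interval and 0 lower, beside 15.1% and 22.4% of all genes. After Cxcr6 and Cd200r1, Cd69, an activation and retention antigen, stood at 37 against 23.3 CPM, and Zfp683, the residency factor Hobit, at 11.6 against 7.66. Itga1, the integrin CD49a, stood at 12.4 against 8.33 and Tnfsf10, the death ligand TRAIL, at 53.3 against 37.1. Rgs1, a regulator of G protein signalling, stood at 57.4 against 37.7 here but at 37.9 against 68.2 in the injected pair.

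Transcription factors of NK identity differed little. Of 18 measured genes 2 were higher and 10 lower by interval, beside 15.1% and 22.4% of all genes, with a median of -0.08. Eomes stood at 662 against 789 CPM with -0.25 (-0.29 to -0.22) and Runx3 at 372 against 445 with -0.26 (-0.30 to -0.21). Myb, a factor of progenitor cells, was lowest at -0.54 (-0.71 to -0.37), and Nfil3, needed for NK development, was at -0.28 (-0.43 to -0.14). In the injected pair Eomes and Runx3 were nearly level, at 0.01 and -0.05.

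Genes that IRF4 partners with or is known for regulating were checked as a list. Of 23 measured genes 12 were higher by interval and 2 lower, beside 15.1% and 22.4% of all genes, with a median of 0.20. Irf4 itself is in this list and is counted among the higher ones. Irf8, the closest relative of Irf4, stood at 704 against 535 CPM with 0.39 (0.36 to 0.43). Of the AP-1 partners, Jun was at 0.54 (0.36 to 0.72), Junb at 0.29 (0.25 to 0.34) and Batf at -0.12 (-0.30 to 0.06). Prdm1, which encodes BLIMP-1, stood at 104 against 88.2 with 0.23 (0.14 to 0.33), and Myc at 53.3 against 62.3 with -0.23 (-0.35 to -0.10).

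Receptors and granule contents showed small ratios. Of 11 measured Ly49 genes, inhibitory and activating receptors for MHC class I, 8 were higher by interval and 0 lower, beside 15.1% and 22.4% of all genes, with none above 0.33. Klra8, the activating receptor Ly49H, stood at 1226 against 977 CPM. In the injected pair 6 of the 11 Ly49 genes were higher by interval and 4 lower, beside 28.2% and 26.6% of all genes in that pair. By interval 3 went the same way in both pairs and 4 opposite ways. Ly49 genes resemble each other closely, so reads may be split between them. Of 17 granule genes 9 were higher and 3 lower by interval, beside 15.1% and 22.4% of all genes, with a median of 0.06. Gzma, granzyme A, stood at 4669 against 3741, Prf1, perforin, at 1195 against 1080, and Gzmb, granzyme B, at 537 against 464. Gzmk, granzyme K, stood at 11.6 against 6.61 and Gzmm, granzyme M, at 14.3 against 19.1, the 2 ends of the list at 0.79 and -0.41.

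MHC class I genes, which present peptides to T cells and engage Ly49 receptors, were higher as a list by small amounts. Of 18 measured genes 13 were higher by interval and 1 lower, beside 15.1% and 22.4% of all genes, with a median of 0.23. Nlrc5, the transcriptional activator of these genes, had the highest ratio and stood at 453 against 308 CPM with 0.56 (0.51 to 0.60). Tap1, a peptide transporter subunit, stood at 362 against 273 and B2m, the light chain, at 2283 against 2015. The classical heavy chains H2-K1 and H2-D1 stood at 5363 against 4618 and 4129 against 3714, and the near-identical Qa genes such as H2-Q7, at 2078 against 1645, may share reads. Psmb10, an immunoproteasome subunit, was the 1 lower by interval, at -0.11 (-0.19 to -0.04). The interferon-inducible GTPases had 8 of 12 members higher and 1 lower by interval, beside 15.1% and 22.4% of all genes. Of 20 type I interferon-stimulated genes 8 were higher and 2 lower by interval, beside the same shares of all genes, with a median of 0.02. Oas1a was at 0.72 (0.52 to 0.92) and Oas3, from the same gene family, at -0.73 (-0.94 to -0.54).

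Chaperone genes were mostly lower in the library labelled Irf4-/- of the control pair. Of 20 measured heat shock and chaperone genes 0 were higher by interval and 15 lower, beside 15.1% and 22.4% of all genes, with a median of -0.20. Hspa1b, an inducible HSP70, had 388 and 2084 counts, or 24.2 against 99.2, and Hspa1a, the other inducible HSP70, had 57 and 325 counts. Hspe1, a mitochondrial chaperonin subunit, was at -0.50 (-0.61 to -0.40), Hsp90aa1, the inducible HSP90, at -0.43 (-0.47 to -0.39), Hsph1, an HSP70 partner, at -0.43 (-0.49 to -0.37) and Dnajb1, an HSP40, at -0.33 (-0.40 to -0.27). Hsf1, the transcription factor of this response, was at -0.14 (-0.25 to -0.02).

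The 2 inducible HSP70 genes lie 9952 bases apart on chromosome 17 and are near-identical, so their counts are uncertain as single genes. Over 2210 aligned transcript bases 2190 matched (99.1%), and of the 150 promoter bases shown 149 matched. The promoters are shown from 125 bases before to 25 after the start site (RefSeq, GRCm38.p6), with the heat shock element, searched as GAANNTTC, in capitals.
Hspa1a: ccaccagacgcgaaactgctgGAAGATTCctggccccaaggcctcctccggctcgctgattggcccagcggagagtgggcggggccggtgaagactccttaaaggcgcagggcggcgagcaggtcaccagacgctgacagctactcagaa
Hspa1b: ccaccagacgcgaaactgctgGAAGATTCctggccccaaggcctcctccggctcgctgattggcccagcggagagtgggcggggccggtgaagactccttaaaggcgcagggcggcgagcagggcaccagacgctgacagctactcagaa
They lie on the minus strand at chr17:34972132-34972281 and chr17:34959214-34959363. Of the 20 list members 16 had a promoter window, and 10 of these (62.5%) held the element. The share was 6.68% of the genes at the minimum with a window and 7.86% of all windows.

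The heat shock list varied more between control and injected libraries than between genotype labels. Its summed level was 5794 against 6875 CPM in the control pair and 3944 against 3429 in the injected pair. Hspa1b stood at 1.02 against 0.969 in the injected pair, with 19 and 18 counts, so both control libraries were far above both injected ones. In the injected pair 9 of the 20 genes were higher by interval and 2 lower, beside 28.2% and 26.6% of all genes in that pair.

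Immediate early genes, which respond within minutes to cell handling as well as to signals, had members on both sides. Of 29 measured genes 7 were higher by interval and 14 lower, beside 15.1% and 22.4% of all genes. Fosb was at 0.96 (0.71 to 1.23), the phosphatase gene Dusp1 at 0.61 (0.44 to 0.78), and Fos at 0.41 (0.25 to 0.57). Egr1 was at -0.61 (-0.83 to -0.40), Egr2 at -0.74 (-1.12 to -0.40) and Nr4a1, an orphan nuclear receptor induced by receptor signals, at -0.65 (-0.81 to -0.49). In the injected pair Fosb and Dusp1 were on the other side, at -0.98 and -1.44.

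Among lists of 10 or more measured genes, cytosolic ribosomal proteins had the largest share lower. Of 81 measured genes 74 were lower by interval and 2 higher, beside 22.4% and 15.1% of all genes, with a median of -0.20. In the injected pair 76 were lower and 2 higher, beside 26.6% and 28.2% of all genes in that pair. The summed level was 46475 against 52654 CPM in the control pair and 51179 against 65238 in the injected pair. Rps12 stood at 447 against 594 and Rps20 at 316 against 408, and Rpl22l1, a paralog of Rpl22, was an exception at 0.32 (0.21 to 0.43). Mitochondrial ribosomal protein genes had a median of -0.03 over 73 genes, nuclear genes of oxidative phosphorylation one of -0.01 over 76, glycolysis genes one of 0.03 over 22 and proteasome genes one of 0.02 over 37. These 4 medians lie within 0.03 of 0, beside that of all genes at -0.02.

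Single genes of other lists are given next. Nnt, the mitochondrial transhydrogenase that supplies NADPH, stood at 43.6 against 23.9 CPM in the control pair and 46.8 against 18.9 in the injected pair. Gimap7, a GTPase of lymphocyte survival, stood at 109.6 against 71.6, while the other 7 measured genes of its family lay between -0.12 (Gimap5) and 0.28 (Gimap4). Acvr2a, an activin receptor, stood at 18.5 against 10.7, in a list of 16 TGF-beta pathway genes of which 1 was higher and 8 lower by interval, beside 15.1% and 22.4% of all genes. In that list Tgfb1, the ligand itself, stood at 140.4 against 177 with -0.33 (-0.41 to -0.26), and Smad7, the inhibitory SMAD, at 83.3 against 109 with -0.39 (-0.49 to -0.29). Itga4, an integrin chain of homing, had the largest CPM difference downward of the listed integrin genes, at 1421 against 1969.

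One set of the 2-fold higher genes had a different pattern over the 4 libraries. The mitochondrially encoded genes mt-Co2, mt-Atp6 and mt-Co3 stood at 29 against 9.85, 14.9 against 6.18 and 18.8 against 5.09 CPM in the control pair, and at 26.1 against 26.8, 17.9 against 18.7 and 16.8 against 18.5 in the injected pair. The other 7 measured mitochondrially encoded genes lay between 0.00 (mt-Nd2) and 0.11 (mt-Nd1). On chromosome 1, between positions 24611535 and 24616197, 5 pseudogenes carry nuclear copies of mitochondrial sequence, and all 5 were 2-fold higher too. Gm28661, a copy of mt-Co2, stood at 31.3 against 11.5, Gm10925, a copy of mt-Atp6, at 32.6 against 11.3, and Gm28437, a copy of mt-Co3, at 19 against 5.8. Gm29216, with part of mt-Co1, stood at 19 against 5.47 and Gm28439, with part of mt-Nd4, at 8.3 against 2.43. In all 8 genes WT control was the lowest library, and the other 3 lay above it by a wide margin.

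The copies match their source almost base for base. Gm28661 matched mt-Co2 at 681 of 681 aligned bases, Gm10925 matched mt-Atp6 at 678 of 678 and Gm28437 matched mt-Co3 at 783 of 783. The first 90 bases of the mt-Co3 transcript (GENCODE, GRCm38) are shown, and those of Gm28437 are the same.
mt-Co3: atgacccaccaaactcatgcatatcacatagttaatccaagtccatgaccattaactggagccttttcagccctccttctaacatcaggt
Reads from such sequence cannot be assigned to one place, and how the authors' pipeline treated reads with several matches is not given in the sources used here. The ratios of these 8 genes are therefore uncertain as measures of any single gene.

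Most ribosomal protein pseudogenes were also higher in the library labelled Irf4-/- of the control pair. Of 10 measured ones 8 were higher by interval and 1 lower in the control pair, beside 15.1% and 22.4% of all genes. Their median was 0.76, opposite to their parent genes, and the injected pair had a median of -0.42. Rpl14-ps1 stood at 7.68 against 3.14 CPM and 7.84 against 9.96, and Rpl17-ps10 at 8.24 against 3.57 and 7.57 against 10.3. Over all 93 measured pseudogenes the median was 0.23 in the control pair and -0.02 in the injected pair. Without pseudogenes and mitochondrially encoded genes, an alternative added after seeing the data, 54 genes were 2-fold higher and the same number, 10, lower.

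**Figure D4:**
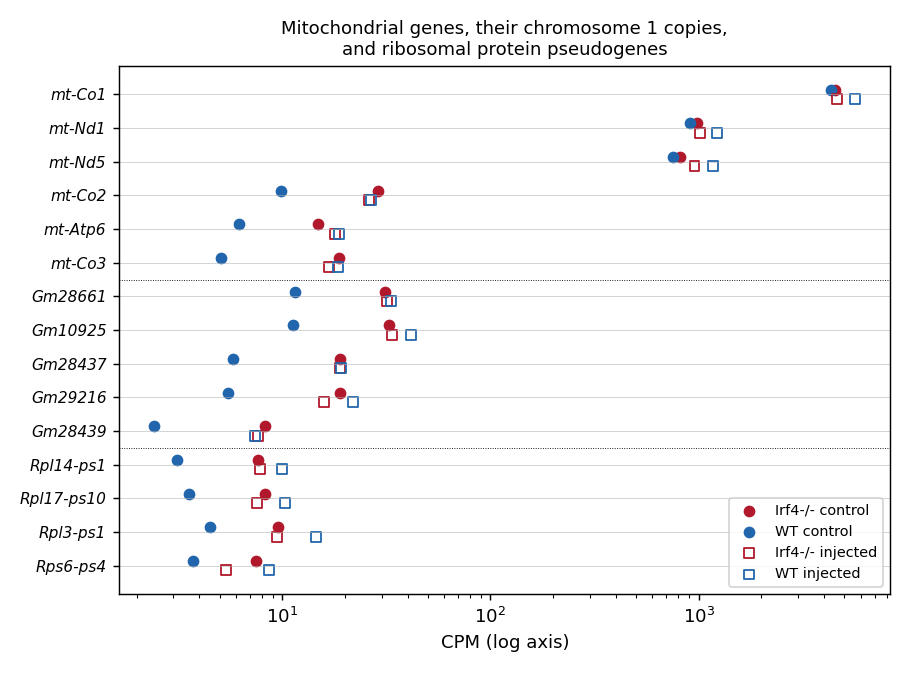
CPM (log axis) in each of the 4 libraries of 6 mitochondrially encoded genes, 5 pseudogenes on chromosome 1 with copies of mitochondrial sequence, and 4 ribosomal protein pseudogenes, separated by dotted lines; red marks libraries labelled Irf4-/-, blue WT, filled circles control and open squares injected. For mt-Co2, mt-Atp6, mt-Co3 and every pseudogene the filled blue circle of WT control is the lowest symbol, while mt-Co1, mt-Nd1 and mt-Nd5 are nearly level between the control libraries.

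Most of the 2-fold genes went the same way in the injected pair, which shares no library with this one. Of the 67 higher genes 53 were higher by interval there, 7 were lower and 7 had an interval that includes 0; 43 were also 2-fold higher. Of all genes at the minimum 28.2% were higher by interval in the injected pair and 1.2% were 2-fold higher. Of the 10 lower genes 6 were lower there, each by 2-fold, beside 26.6% (by interval) and 0.559% (2-fold) of all genes. Among the 1459 genes higher by interval alone, 744 (51.0%) were higher and 261 (17.9%) lower in the injected pair, and among the 2161 lower ones 825 (38.2%) were lower and 492 (22.8%) higher.

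Ordered over the 4 libraries, both libraries labelled Irf4-/- lay above both WT libraries for 52 of the 67 genes (77.6%). Both lay below for 7 of the 10 lower genes. The choice of these genes by the control pair fixes part of that order, so the shares over all genes, 15.3% above and 18.2% below, are no measure of it. The median log2 ratio of the 67 genes was 1.31 in the control pair, where the rule set it, and 1.34 in the injected pair. Asph, Cx3cr1 and Gadd45g had the larger ratio in the injected pair, at 3.59, 3.07 and 2.56 against 2.31, 1.63 and 1.83. Serpina3f, a protease inhibitor, and Plac8, a cysteine-rich protein of myeloid cells and lymphocytes, had the smaller one, at 0.15 and 0.44 against 1.18 and 1.27.

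**Figure D5:**
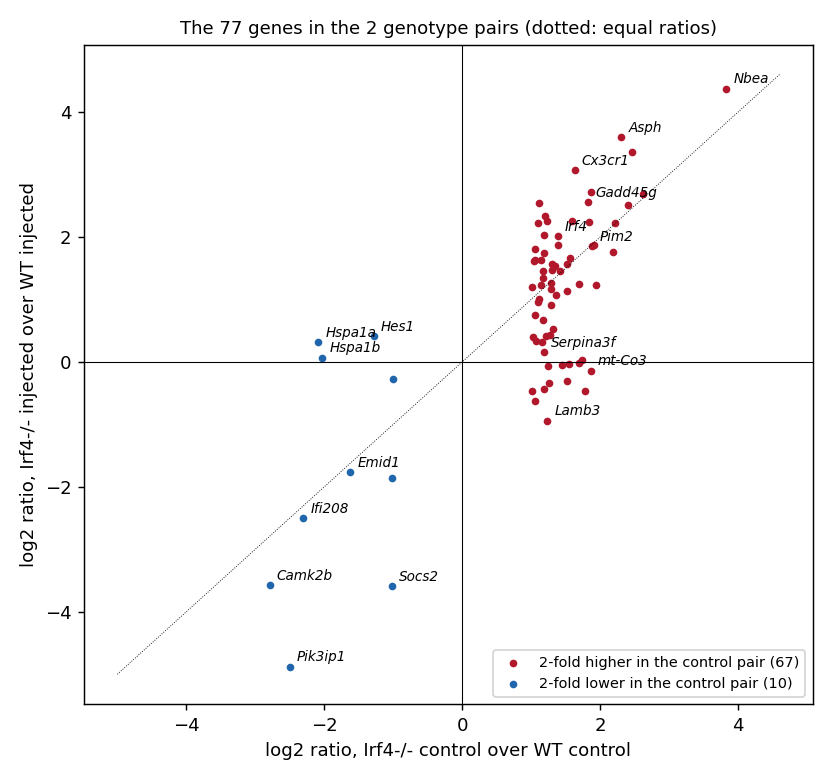
The 77 genes that differed by at least 2-fold in the control pair, by their log2 ratio there (horizontal axis) and in the injected pair (vertical axis); red marks the 67 higher and blue the 10 lower genes, and the dotted line marks equal ratios. Points right of 0 and below the horizontal line, such as Lamb3 and mt-Co3, have ratios of opposite sign in the pairs, and 43 red and 6 blue points are past 2-fold the same way in both pairs.

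Markers of other cells were present in both control libraries. Beside the counts by interval in this paragraph stand the shares over all genes, 15.1% higher and 22.4% lower. The T cell list stood at 489 CPM in the library labelled Irf4-/- and 548 in WT. Of its 13 entries 8 were measured, with 0 higher and 3 lower by interval. The B cell list had 5 of 10 higher and 0 lower, with Cd74, the invariant chain of MHC class II, at 99.5 against 76.7. Of the 19 entries of the monocyte and macrophage list 7 were measured, of which 6 were higher and 0 lower. The lysozyme gene Lyz2 stood at 18.6 against 12.2 and Csf1r, a growth factor receptor of macrophages, at 7.99 against 4.38. The haem oxygenase gene Hmox1 stood at 6.62 against 4, while Axl was on the other side at a log2 ratio of -0.31, with an interval that includes 0. The dendritic cell list summed to 1910 against 1532 CPM with 2 of 6 members higher. Those 2, Itgax at 1103 against 895 and Irf8 at 704 against 535, are also expressed by NK cells and hold most of the sum, while Flt3, a growth factor receptor of dendritic cells, was under the minimum at 1.31 against 0.904. The erythroid list, with 4 of its 12 entries measured, summed to 323 against 276 CPM. The platelet list summed to 47.9 against 31.6, and only 1 of its 10 entries, F2rl2, was measured. No neutrophil, mast cell, basophil or melanocyte marker met the minimum. The part of these cells in the ratios of the genes above was not tested.

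The minimum of 5 CPM is a line drawn within a continuous range of levels. Just inside it were Slc30a4, a zinc transporter, at 5.18 against 4.85, and Arhgef40 at 5.74 against 4.28. Just outside were Fam57a at 4.87 against 5.09 and Anxa8, an annexin, at 6.74 against 3.23. Between 1 and 5 CPM lay 2144 genes, of which 93 were 2-fold higher and 48 2-fold lower by the same fold and interval.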

How the data were processed

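The authors deposited whole-number counts per gene, not normalized, and FPKM; the FPKM equalled the count over the library total and a whole-number length (72455 of 72455 nonzero values, within 0.01 bp). Per the submitters' processing notes TopHat, edgeR and mm10 were used; the sources used here do not give the counting tool, its annotation or its strand setting. Libraries were made with a SMARTER mRNA kit, per the labels' protocols.

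Of the gene identifiers, 34490 matched a symbol in GENCODE M21 (GRCm38) and 785 did not. Scaling used the TMM factors (trimmed mean of M values) of the 4 libraries from edgeR 4.0.16 on R 4.3.3. A prior count of 2 was added for log2 ratios. The words 2-fold higher and 2-fold lower require a mean of 5 CPM or more, that fold or more, and an exact 95% counting interval without 1, which is a rule of size and not a test. The steps were tested on simulated data. Alternatives were total, upper-quartile and DESeq2 1.42.0 median-of-ratios scaling, other minimums, folds, prior counts and intervals, FPKM with a pseudocount of 0.1, and gene families left out.

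Gene names follow a rule: Irf4, the 30 largest ratios upward and 20 downward among protein-coding genes (without antigen receptor segments and Gm or Rik names), the 10 largest CPM differences and 5 other ratios each way, up to 6 members of each list, genes opposite in the 2 pairs, genes in the 2 chromosome windows and those nearest the minimum. Some were left out for length, and members of lists or of the 67 and 10 genes named beyond it were chosen after their values were seen. The 57 lists held 1236 entries, of which 1224 matched. Members, lists and alternatives were chosen with earlier results of these data known. A few genes are not reported here.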

Additional observations from a re-analysis of the deposited data

Results flagged for a closer look

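In 12 genes the control pair and the injected pair differed in opposite directions, each by at least 1.5-fold with a counting interval that excludes no difference. With 1 library in each group the difference between the pairs was not tested. Higher in the library labelled Irf4-/- of the control pair and lower in that of the injected pair were Lamb3, a laminin chain, at 1.24 and -0.94, and Acvr2a, an activin receptor, at 0.78 and -0.61. Fosb, an AP-1 subunit, was at 0.96 and -0.98, Dusp1, a MAP kinase phosphatase, at 0.61 and -1.44, and Rgs1, a regulator of G protein signalling, at 0.60 and -0.84. Tm6sf2 was at 0.59 and -0.66. Of the pseudogenes and noncoding genes, Rpl3-ps1 was at 1.06 and -0.62, Rps6-ps4 at 0.99 and -0.67, Gm10275 at 0.75 and -0.64, Gm15427 at 0.70 and -0.76, and 5031434O11Rik at 0.70 and -0.60. The opposite order was seen for Dnase1l2, a deoxyribonuclease, at -0.64 and 0.59.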

How the results depend on the processing

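The number of 2-fold higher genes stayed between 54 and 70, and of lower genes between 7 and 10, across the scalings, prior counts, FPKM, gene families left out, and TMM over the 2 control libraries alone, the last and the removal of pseudogenes and mitochondrially encoded genes having been added after seeing the data. Rab27b, Socs2 and C030034L19Rik were the lower genes that fell short of 2-fold with upper-quartile scaling. Minimum and fold moved the counts: 160 higher and 58 lower at a minimum of 1 CPM, 16 and 4 at 20 CPM, 180 and 64 at 1.5-fold and 20 and 6 at 3-fold, as fewer or more genes can pass. By the interval alone, 1041 to 1808 genes were higher and 1515 to 2343 lower, 40.3% of calls being higher with TMM and 51.3% with upper-quartile scaling. None of the 48 list medians tried changed sign where its interval excluded 0. That interval runs between ranked members of the list, treats members as independent, and is not a counting interval. None of 118 named genes changed sign where its own counting interval excluded 0. Scaling shifts all ratios nearly alike, and the median of all genes moved only from -0.024 to 0.0003. It could not reverse list medians such as 0.44 (mitosis) or -0.20 (cytosolic ribosomal proteins), so for these the scaling check decides nothing. Depth limits genes near 5 CPM most. No paired analysis was possible because each group has 1 library.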

Other observations

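Below the minimum, some genes had large ratios. Il10, an anti-inflammatory cytokine, had 120 and 4 counts in the control pair, with a log2 ratio of 4.67 (3.91 to 7.20). Foxp3, the transcription factor of regulatory T cells, had 44 and 6 counts, with 2.86 (2.03 to 4.79), and 38 and 8 in the injected pair. Grhl3, a transcription factor of epithelia, had 38 and 1, and Arnt2, a partner of basic helix-loop-helix factors, 80 and 15. On the other side, Nefh, a neurofilament gene on the early stretch of chromosome 11, had 10 and 179 counts, with -3.56 (-4.86 to -2.86), and Fgfbp3 had 26 and 122.

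Transcripts of placenta were counted in WT control. Tpbpa, a trophoblast protein, had 36 counts there and 0 in the other 3 libraries, and the prolactin family genes Prl3b1, Prl7d1, Prl7a2 and Prl8a9 had 19, 11, 8 and 8 against 0. Ctsj, a placental cathepsin, had 13 against 0, and H19, an imprinted noncoding RNA, had 26 in WT control, 1 in WT injected and 0 in both libraries labelled Irf4-/-. A count of 0 allows up to 3 counts per library. The observed WT control level of Tpbpa was 9.14-fold above that limit in Irf4-/- control, and that of H19 6.60-fold. These folds leave out the counting error of WT control. The exact counting intervals of the log2 ratio, which include that error, end at -2.82 for Tpbpa and -2.32 for H19. Of all 35275 genes, 9 had at least 8 counts in WT control and 0 elsewhere, 121 counts together. The same cut gave 0 genes in Irf4-/- control, 0 in Irf4-/- injected and 2 in WT injected. WT control had the largest total count of the libraries, and a cut in counts favours a deeper library. The genes named here were chosen after their values were seen. The Y-linked genes Ddx3y and Eif2s3y stood at 159.5 against 154 and 134 against 132 CPM in the control pair, and Xist, expressed in female cells, had 4 and 3 counts. Where the placental transcripts come from was not tested.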
